A study of Mus musculus with 56 samples.

Results

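The liver transcripts of 10 mouse genes of drug metabolism were examined in 56 mice. Nr1i3 encodes the constitutive androstane receptor (CAR) and Nr1i2 the pregnane X receptor (PXR). Cyp2b10, Cyp2b9, Cyp2b13, Cyp3a11, Cyp3a13, Cyp2c29 and Cyp2c55 encode cytochromes P450, and Por encodes the cytochrome P450 reductase. The 10 genes were chosen by name, out of 45513 genes counted, as receptors, classical target families and the shared reductase of one pathway. All 10 had an identifier in the count tables, and all 10 passed the filter on low counts that left 14314 genes for testing. No measured threshold entered the choice, but it was made with earlier results of these counts known, so the adjusted p values below describe the size of a difference relative to the spread between mice and are not independent evidence about the choice.

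All mice were female APOE*3Leiden.CETP mice, which carry human transgenes that alter lipoprotein metabolism and serve as a model of dyslipidemia and atherosclerosis. They entered the study at 9 to 14 weeks of age and ate a Western-type diet with 15% cacao butter and 0.15% cholesterol, controls included. Each of the 7 groups held 8 livers from separate mice, taken after 16 weeks of treatment. The drugs were 3 inhibitors of the BCR-ABL1 tyrosine kinase that are used in chronic myeloid leukemia. Imatinib (150 mg/kg) was given by gavage 2 times a day. Nilotinib (10 or 30 mg/kg) and ponatinib (3 or 10 mg/kg) were given 1 time a day, with vehicle as the other gavage. Control mice received only vehicle, a 5% suspension of carboxymethyl cellulose. A further group drank L-NAME, an inhibitor of nitric oxide synthase, at 0.12 to 0.20% in water and was gavaged with vehicle. The comparisons ask which drug and dose moved the pathway relative to vehicle, and whether the doses and drugs differed. All 6 comparisons with control share the same 8 control mice.

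CAR and PXR are nuclear receptors of the hepatocyte that respond to foreign chemicals. On activation each pairs with the retinoid X receptor (RXR) and binds paired hexamers of the type AGGTCA or AGTTCA near its target genes. CAR is the classical regulator of Cyp2b10 and PXR of Cyp3a11, with many shared targets, and induction of these genes is the usual sign in mouse liver that a compound engages the receptors. P450 enzymes oxidise drugs, steroids and lipids with electrons that arrive from NADPH through the reductase encoded by Por. Receptor activity is set largely by ligand, phosphorylation and movement into the nucleus, so the level of receptor mRNA is not a measure of its activity. Cyp2b9 and Cyp2b13 are Cyp2b genes known for higher expression in female than in male mouse liver.

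Several of the 7 P450 genes have near-copies among their neighbours, and sequence is shown because it sets which reads can be counted. On GRCm38, Cyp2b10 (chr7:25897620-25926624), Cyp2b13 (chr7:26061497-26096197) and Cyp2b9 (chr7:26173411-26210661) follow each other on the plus strand. The coding sequences of Cyp2b9 and Cyp2b13 are identical over 113 bases of exon 3, at chr7:26186907-26187019 and chr7:26080911-26081023, on the plus strand.
Cyp2b9 and Cyp2b13 shared run: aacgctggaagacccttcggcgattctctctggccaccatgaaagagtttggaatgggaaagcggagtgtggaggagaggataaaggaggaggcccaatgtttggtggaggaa
A read that falls inside this run aligns to both genes and was counted on neither. Of all windows of 75 bases along the annotated exons, 16.4% in Cyp2b13 and 5.16% in Cyp2b9 occur in another annotated gene, against 2.76% in Cyp2b10. The gene that shared most with Cyp2b13 was Gm45225, with 11.2% of its windows, and the share of Cyp2b9 was with Cyp2b13. Cyp3a11 (chr5:145854426-145879964, minus strand) shared 1.66% of its 75-base windows and Cyp3a13 (chr5:137892932-137921619, minus strand) shared none. Cyp2c29 (chr19:39269405-39330713) shared 2.46%, with a pseudogene named Cyp2c53-ps, and Cyp2c55 (chr19:39007019-39042693) shared none. Annotated exons of Cyp2c29 and Cyp2c53-ps overlap by 142 bases on the same strand. With windows of 50 bases the shares were 27.3% for Cyp2b13, 11.2% for Cyp2b9, 8.70% for Cyp2b10, 6.73% for Cyp3a11, 4.25% for Cyp2c29 and 1.13% for Cyp2c55. The read length is not given in the sources used here, so both lengths are given.

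The stretches just upstream of the transcription start are shown for the 3 Cyp2b genes, because Cyp2b9 and Cyp2b13 are near-copies there. The same stretches are shown for Cyp3a11 and Cyp2c29, which rose with imatinib. They come from RefSeq (GRCm38.p6), in which all 10 genes matched an entry, and each stops at the first base that GENCODE places in an exon of the gene. Capitals mark the hexamers AGGTCA and AGTTCA, searched on both strands of the 250 bases before the RefSeq start.
Cyp2b10, chr7:25897408-25897619, plus strand: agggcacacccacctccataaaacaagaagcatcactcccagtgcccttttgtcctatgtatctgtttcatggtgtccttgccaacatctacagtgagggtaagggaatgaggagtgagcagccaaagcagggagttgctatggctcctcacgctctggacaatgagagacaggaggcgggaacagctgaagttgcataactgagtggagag
Cyp2b9, chr7:26173159-26173408, plus strand: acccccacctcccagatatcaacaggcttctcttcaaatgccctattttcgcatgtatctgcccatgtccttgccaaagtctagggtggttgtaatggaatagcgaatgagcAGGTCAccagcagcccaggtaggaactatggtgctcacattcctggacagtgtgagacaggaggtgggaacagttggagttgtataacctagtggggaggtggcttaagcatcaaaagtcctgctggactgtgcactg
Cyp2b13, chr7:26061245-26061494, plus strand: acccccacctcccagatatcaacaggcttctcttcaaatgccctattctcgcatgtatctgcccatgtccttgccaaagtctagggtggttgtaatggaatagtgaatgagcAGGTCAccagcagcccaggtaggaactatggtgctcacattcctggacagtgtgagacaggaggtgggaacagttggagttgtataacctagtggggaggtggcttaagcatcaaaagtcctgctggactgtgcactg
Cyp3a11, chr5:145879965-145880104, minus strand: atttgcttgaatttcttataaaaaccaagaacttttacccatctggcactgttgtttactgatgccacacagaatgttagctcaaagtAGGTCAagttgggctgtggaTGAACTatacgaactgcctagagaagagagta
Cyp2c29, chr19:39286835-39287073, plus strand: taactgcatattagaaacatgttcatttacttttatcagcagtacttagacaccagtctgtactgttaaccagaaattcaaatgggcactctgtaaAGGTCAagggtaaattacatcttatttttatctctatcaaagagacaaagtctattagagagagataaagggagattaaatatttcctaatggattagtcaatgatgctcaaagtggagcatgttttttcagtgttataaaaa
The 250 bases of Cyp2b9 and Cyp2b13 were identical at 248 positions (99.2%), whereas those of Cyp2b9 and Cyp2b10, aligned without gaps, matched at 26.4%. The latter value compares bases at the same distance from the start, so it does not measure likeness between stretches that are shifted. The printed Cyp2b10 and Cyp2b9 stretches do share runs at shifted positions, such as tgtccttgccaa. AGGTCA began at position -138 in Cyp2b9 and Cyp2b13, at -162 in Cyp3a11 and at -154 in Cyp2c29, and AGTTCA lay on the opposite strand at -142 in Cyp3a11. Cyp2b10 held neither hexamer in this window. Of 32851 RefSeq promoters of 300 bases, 16.3% held AGGTCA and 14.0% held AGTTCA on either strand. Direct repeats of AGGTCA or of AGTTCA spaced by 4 bases, and of AGTTCA spaced by 3 bases, searched on both strands, occurred in none of the 10 genes and in 5, 4 and 0 of those promoters. A match is a description of letters, and the absence of one says only that the letters are not in this window.

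The libraries held 5342379 to 17996732 reads assigned to genes, apart from L-NAME mouse 010 with 97473341. Values are given in CPM, the reads of a gene scaled to a common library size by TMM, and as CPM per kilobase of annotated exon where genes are compared with each other. The share of uniquely aligned reads that fell outside annotated genes was 7.97% ± 0.42 in control mice and 8.53 to 11.0% on average in the treated groups (SD, n = 8), and it was higher than in control in all 6 treated groups (exact permutation tests, two-sided, adjusted p from 0.00023 to 0.047). Its part in the results was not tested beyond a fit with this share as a covariate. The hepatocyte markers matched the tissue label. All 9 hepatocyte markers in the tables were expressed in every group, with group means from 396 CPM upwards. Of 7 intestine and pancreas markers, 2 (Prss1 and Pnlip) had no read in any mouse, but 3 passed the filter on low counts. The summed level of those 7 ran from 60.5 to 137 CPM in control mice and from 93.7 to 225 CPM with imatinib. Its mean was 94.1 CPM in control mice and higher in all 6 treated groups. These means ran from 129 CPM with ponatinib 3 mg/kg to 162 CPM with imatinib and with L-NAME. Ponatinib 10 mg/kg mouse 008 stood apart. Its level of Saa1, an acute-phase gene, was 11884 CPM against 9.94 to 111 CPM in the other 7 mice of its group and at most 1591 CPM in the other 55 mice, and its level of Alb (44041 CPM) was the lowest of all. It also had the lowest Cyp2b9, Cyp3a11 and Cyp2c29 of the 56 mice and the highest Cyp3a13, so calls against control in the ponatinib 10 mg/kg group are followed by the values without it.

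Of the 10 genes, 5 rose with imatinib as compared with control and none fell (Cyp2b10, Nr1i3, Cyp2c29, Cyp3a11 and Nr1i2; edgeR quasi-likelihood test, adjusted p below 0.05 over all genes). Over all genes tested, 10.2% were called in this comparison and 5.68% were called higher. With nilotinib 30 mg/kg 1 of the 10 was called, Cyp3a11, which rose (5.71% of all genes called), and with L-NAME 1 was called, Nr1i3, which also rose (11.7% of all genes called). With nilotinib 10 mg/kg (1.47% of all genes called), ponatinib 3 mg/kg (0.00699%) and ponatinib 10 mg/kg (12.8%), none of the 10 was called by edgeR. At an unadjusted p below 0.05 these 3 comparisons held 2, 0 and 5 of the 10 genes. DESeq2 called 0, 0 and 0, and limma voom with sample weights 1, 0 and 4. The median log2 fold change of the 10 genes was 0.46 with imatinib, beside -0.02 over all genes, and lay between -0.02 and 0.09 in the other 5 comparisons.

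**Figure D1:**
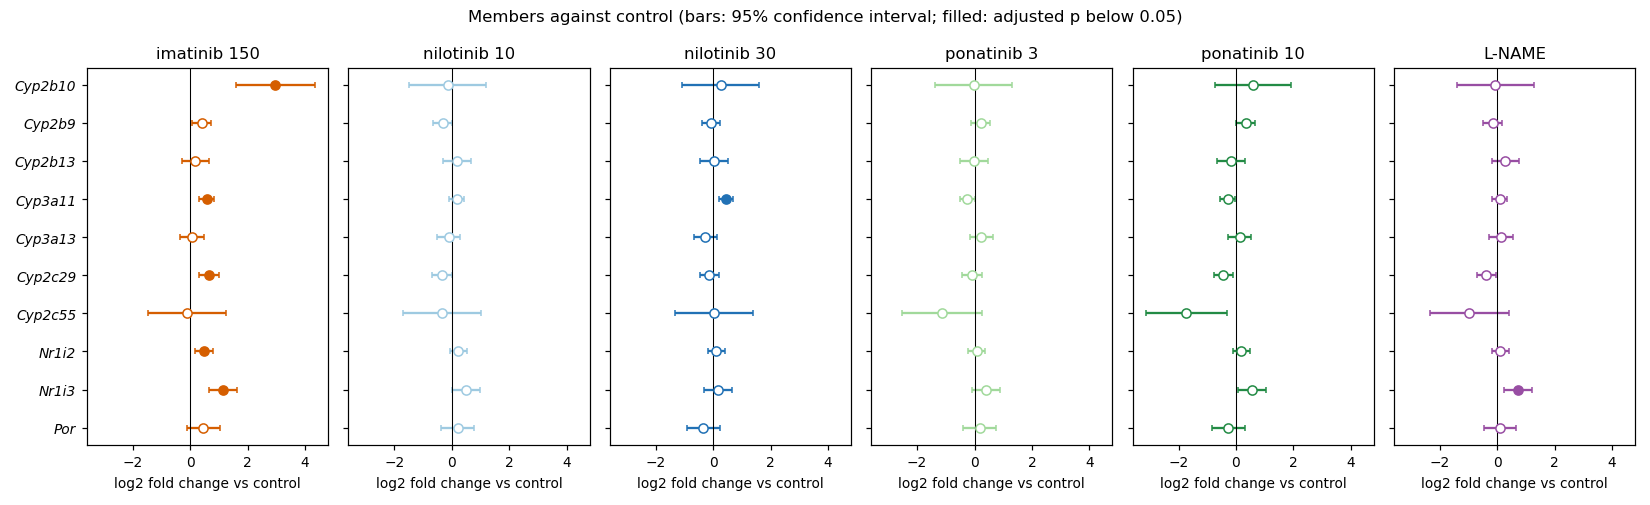
Log2 fold change against control (x axis) of the 10 genes (y axis) in the 6 treated groups, 1 panel a group, with 95% confidence intervals as bars and filled points where the adjusted p was below 0.05. Imatinib has 5 filled points, all to the right of 0 and led by Cyp2b10 at 2.96, nilotinib 30 mg/kg and L-NAME have 1 each and the other 3 panels have none.

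Cyp2b10, the classical CAR target, had the largest change among the 10 genes. In control mice its level ran from 0 through a median of 4.29 to 8.22 CPM (3.85 ± 2.84, mean ± SD, n = 8). With imatinib it ran from 8.54 through 25.9 to 67.7 CPM (29.8 ± 17.9, n = 8). All 8 imatinib mice were above all 8 control mice, although the margin between the lowest imatinib mouse and the highest control mouse was small. The log2 fold change was 2.96 ± 0.69 (SE; 95% confidence interval 1.58 to 4.34; 7.79-fold; edgeR adjusted p = 0.0034). Groups that do not overlap were found for 2 of the 10 genes, Cyp2b10 and Cyp3a11, and for 1.14% of all genes tested.

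In the other treated groups Cyp2b10 stayed within a range that overlapped control. Its lowest, median and highest levels were 0.36, 3.00 and 7.06 CPM with nilotinib 10 mg/kg and 0.66, 4.59 and 11.1 CPM with nilotinib 30 mg/kg. They were 0, 3.76 and 8.50 CPM with ponatinib 3 mg/kg and 0, 6.66 and 10.6 CPM with ponatinib 10 mg/kg. With L-NAME they were 1.09, 2.82 and 12.2 CPM. These are low levels that vary between mice, and the intervals are wide. The 95% interval of the log2 fold change ran from -1.07 to 1.60 with nilotinib 30 mg/kg and from -0.74 to 1.92 with ponatinib 10 mg/kg. Changes within those limits are therefore not excluded. None of these 5 comparisons was called for Cyp2b10 by edgeR (adjusted p from 0.64 to 0.996).

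**Figure D2:**
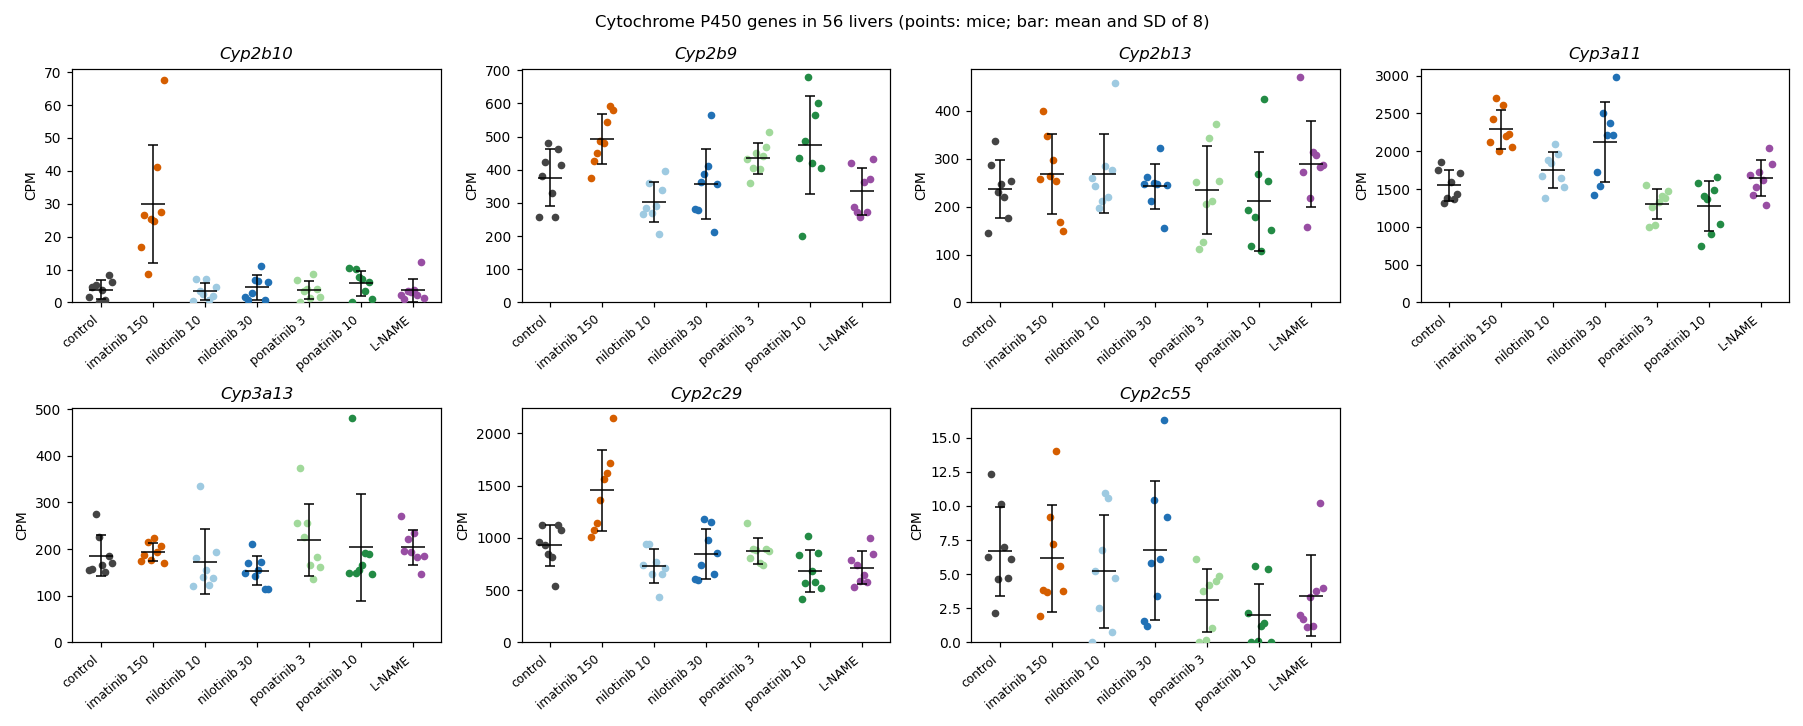
Level of the 7 P450 genes in CPM (y axis, from 0, its own scale in each panel) in each of the 56 mice by group (x axis), 1 point a mouse, with the group mean and SD. Cyp2b10 in the 8 imatinib mice (8.54 to 67.7 CPM) and Cyp3a11 in the 8 imatinib mice (from 1999.8 CPM) lie above all control mice.

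Cyp2b9 and Cyp2b13 were far more abundant than Cyp2b10 in these female livers. The medians over the 56 mice were 216, 134 and 1.95 CPM per kilobase for Cyp2b9, Cyp2b13 and Cyp2b10. Cyp2b9 ran from 257 through 398 to 481 CPM in control mice (376 ± 86.4) and from 376 through 484 to 592 CPM with imatinib (492 ± 75.8, n = 8 each). The 2 groups overlapped, with 4 of 8 imatinib mice above all control mice, and the log2 fold change of 0.39 ± 0.16 was not called (edgeR adjusted p = 0.12). Cyp2b13 ran from 145 through 239 to 338 CPM in control mice and from 149.8 through 261 to 401 CPM with imatinib, a log2 difference of 0.17 ± 0.24 (adjusted p = 0.73). Cyp2b10 thus made up 0.603% of the reads counted on the Cyp2b genes in control mice and 3.75% with imatinib.

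With ponatinib 10 mg/kg, Cyp2b9 ran from 201 through 461 to 681 CPM (475 ± 147). The lowest value belonged to mouse 008, and the other 7 mice held 407 CPM or more. The log2 fold change against control was 0.34 ± 0.16 (adjusted p = 0.17), and without mouse 008 it was 0.45 ± 0.15 (adjusted p = 0.029), so the call depends on that mouse. With nilotinib 10 mg/kg Cyp2b9 ran from 206 through 288 to 396 CPM (301 ± 60.3), a log2 difference of -0.32 ± 0.16 from control that was not called (adjusted p = 0.37). The medians were 360.4, 438 and 325 CPM with nilotinib 30 mg/kg, ponatinib 3 mg/kg and L-NAME. Cyp2b13 was called in none of the 6 comparisons with control. Its group medians lay between 185 and 285 CPM, the lowest with ponatinib 10 mg/kg and the highest with L-NAME, and all 6 treated groups overlapped control.

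Cyp3a11, the classical PXR target and the main Cyp3a transcript of mouse liver, had the highest level per length of the 10 genes, with a median of 319.8 CPM per kilobase over the 56 mice. In control mice it ran from 1315 through 1515 to 1855 CPM (1551 ± 203, n = 8) and with imatinib from 1999.8 through 2210.1 to 2700.0 CPM (2291 ± 258). No imatinib mouse overlapped a control mouse. The log2 fold change was 0.56 ± 0.13 (95% interval 0.31 to 0.82; 1.48-fold; edgeR adjusted p = 0.0023).

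Nilotinib 30 mg/kg gave Cyp3a11 levels from 1423 through 2209 to 2981 CPM (2120.3 ± 528). The spread between mice was wider than in the other groups: 5 of 8 mice were above all controls, and 2 of 8 were below the control mean. As compared with control this was a log2 fold change of 0.45 ± 0.13 (1.37-fold, edgeR adjusted p = 0.021). This call was kept in 13 of 16 fits that left out a mouse of either group, and was lost without control mouse 040 or nilotinib mice 031 or 054. It was also lost with the outside-gene share as a covariate, where the log2 fold change was 0.44.

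The other groups were not called for Cyp3a11 by edgeR. Nilotinib 10 mg/kg gave 1384, 1753 and 2095 CPM as lowest, median and highest level (log2 difference 0.17 ± 0.13), and L-NAME gave 1289, 1649.8 and 2047 CPM (0.08 ± 0.13). Ponatinib gave 996, 1357 and 1548 CPM at 3 mg/kg (-0.25 ± 0.13, adjusted p = 0.52), with all 8 mice below the control mean. At 10 mg/kg it gave 743, 1386 and 1658 CPM (-0.28 ± 0.13, adjusted p = 0.14), and without mouse 008 the log2 difference was -0.20. Limma voom called the latter group lower (-0.32, adjusted p = 0.042). Cyp3a13, a Cyp3a gene that lies apart from the Cyp3a11 cluster, was called in no comparison with control. Its group medians lay between 147 and 204 CPM, beside 168 CPM in control mice, and its log2 difference with imatinib was 0.06 ± 0.20.

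Cyp2c29, a Cyp2c gene known as a CAR target, rose with imatinib. It ran from 539.9 through 950.3 to 1128 CPM in control mice (928 ± 196) and from 1009 through 1466 to 2151 CPM with imatinib (1455 ± 386, n = 8 each). The groups overlapped, with 6 of 8 imatinib mice above all controls and 8 of 8 above the control mean. The log2 fold change was 0.65 ± 0.17 (1.57-fold, edgeR adjusted p = 0.0082). In the other 5 groups the differences from control were negative and not called by edgeR: -0.35 with nilotinib 10 mg/kg (adjusted p = 0.34), -0.14 with nilotinib 30 mg/kg (0.76), -0.44 with ponatinib 10 mg/kg (0.074), -0.088 with ponatinib 3 mg/kg (0.93) and -0.38 with L-NAME (0.15), on the log2 scale with SE of 0.17 each. Limma voom called the difference with ponatinib 10 mg/kg (-0.52, adjusted p = 0.015). With ponatinib 10 mg/kg the levels ran from 414 through 631 to 1013 CPM (685 ± 202), and 7 of 8 mice were below the control mean. Without mouse 008 that log2 difference was -0.36 (adjusted p = 0.16).

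Cyp2c55, known as an inducible Cyp2c gene with low basal expression in liver, stayed near the detection limit with a median of 2.05 CPM per kilobase over all mice. It ran from 2.15 through 6.18 to 12.4 CPM in control mice and from 1.95 through 4.72 to 14.0 CPM with imatinib (log2 difference -0.12 ± 0.67, adjusted p = 0.95). The levels with ponatinib 10 mg/kg were 0, 1.31 and 5.58 CPM, with 6 of 8 mice below all controls (-1.73 ± 0.71, adjusted p = 0.098; -1.53 without mouse 008, adjusted p = 0.14). With ponatinib 3 mg/kg all 8 mice were below the control mean (-1.13 ± 0.69, adjusted p = 0.63). No comparison with control was called by edgeR for Cyp2c55, whereas limma voom called it lower with ponatinib 10 mg/kg (-2.55, adjusted p = 0.037) and with L-NAME (-1.44, adjusted p = 0.015).

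Among the receptors, Nr1i3 rose with imatinib. It ran from 321 through 405 to 748 CPM in control mice (475 ± 179) and from 628 through 1155 to 1466 CPM with imatinib (1038 ± 322). The ranges overlapped, but 8 of 8 imatinib mice were above the control mean and 5 were above every control mouse. The log2 fold change was 1.13 ± 0.24 (2.19-fold, 95% interval 1.56 to 3.07; edgeR adjusted p = 0.0018).

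L-NAME was the other group in which Nr1i3 rose, with levels from 489 through 759.6 to 1283 CPM (785 ± 266) and a log2 fold change of 0.72 ± 0.24 (1.65-fold, adjusted p = 0.0404). All 8 mice were above the control mean. This call was kept in only 5 of 16 fits that left out 1 mouse. Without mouse 010, the most deeply sequenced library, the log2 fold change was 0.65 and the adjusted p = 0.092, and with the outside-gene share as a covariate it was 0.43 and not called. The other 4 groups had medians of 624 CPM (nilotinib 10 mg/kg), 469 CPM (nilotinib 30 mg/kg), 649 CPM (ponatinib 3 mg/kg) and 696 CPM (ponatinib 10 mg/kg), all above the control median and none called by edgeR (adjusted p from 0.12 to 0.79). Limma voom called Nr1i3 higher with nilotinib 10 mg/kg (0.68, adjusted p = 0.027). It also did so for ponatinib 10 mg/kg (0.68, adjusted p = 0.012). With a score of circadian clock genes as a covariate, edgeR called it higher with nilotinib 30 mg/kg (0.49, adjusted p = 0.017) and ponatinib 10 mg/kg (0.45, adjusted p = 0.023). Without mouse 008 the ponatinib 10 mg/kg difference was 0.58 and was not called by edgeR (adjusted p = 0.12).

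Nr1i3 lies at chr1:171213970-171220701 on the plus strand, and 3304 of its 4414 annotated exon bases overlap exons of Tomm40l, a gene of mitochondrial protein import on the opposite strand. The library kit and the counting are not stated to use strand in the sources used here, so reads in the overlap cannot be assigned to either gene and would count on neither if strand was ignored. Tomm40l itself had 16.5 ± 2.41 CPM in control mice and a log2 difference of 0.65 ± 0.36 with imatinib (adjusted p = 0.27) and 0.87 ± 0.36 with L-NAME (0.11), neither called. Over the 56 mice, with group means subtracted, Nr1i3 and Tomm40l had a Pearson r of 0.27, given as a description of mice that share their groups.

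Nr1i2 (chr16:38248323-38294824, minus strand) had a median of 34.5 CPM per kilobase, below the 149 of Nr1i3. It ran from 63.7 through 80.2 to 99.9 CPM in control mice (80.1 ± 12.6) and from 63.6 through 111 to 156 CPM with imatinib (111 ± 27.9). In the imatinib group 6 of 8 mice were above all controls, and 1 mouse was below all of them. On the log2 scale the difference was 0.47 ± 0.15 (1.39-fold, edgeR adjusted p = 0.035). The call was kept in 9 of 16 fits that left out a mouse, being lost without control mice 001, 012, 040 or 052 or imatinib mice 006, 011 or 016 (adjusted p from 0.013 to 0.12 over the 16 fits), and it was lost with the outside-gene share as a covariate, where the log2 fold change was 0.32. In the other 5 groups the medians lay between 84.6 and 90.8 CPM and none was called.

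**Figure D3:**
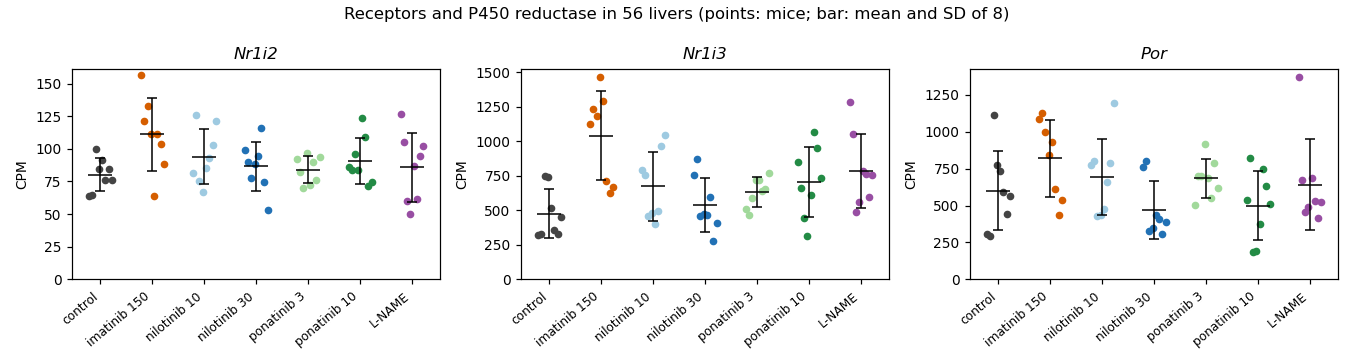
Level of Nr1i3, Nr1i2 and Por in CPM (y axis, from 0, its own scale in each panel) in each of the 56 mice by group (x axis), 1 point a mouse, with the group mean and SD. Nr1i3 spans 277 to 1466 CPM, with the highest group mean under imatinib, and Por spans 183 to 1369.8 CPM with every treated group overlapping control.

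Por (chr5:135670033-135735326, plus strand) was called in none of the 12 comparisons by edgeR. In control mice it ran from 294 through 577 to 1111 CPM (602 ± 271) and with imatinib from 438 through 889 to 1127 CPM (822 ± 262), a log2 difference of 0.45 ± 0.28 (adjusted p = 0.36). The 2 groups overlapped almost wholly, with 1 imatinib mouse above all controls. The lowest group median was 399 CPM with nilotinib 30 mg/kg, whose log2 difference from control was -0.35 ± 0.28 (adjusted p = 0.59). Other fits did call Por. Limma voom called it higher with imatinib than in control (0.58, adjusted p = 0.0496) and than with nilotinib 30 mg/kg (1.00, adjusted p = 0.0036). An edgeR fit with the clock score as a covariate called it lower with ponatinib 10 mg/kg than in control (-0.42, adjusted p = 0.032), with imatinib (-0.75, adjusted p = 0.00066) and with nilotinib 10 mg/kg (-0.58, adjusted p = 0.012).

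Much of the spread of Por and Nr1i3 inside the groups went with genes of the circadian clock, which drive daily rhythms in liver. A clock score was formed, after the values had been seen, as the mean log2 level of Dbp, Tef, Nr1d1, Nr1d2, Per1, Per2, Per3 and Ciart minus that of Arntl, Npas2 and Clock. The mice were divided at a score of 3, a cut set after the values had been seen. The low range held 22 mice from -1.46 to 2.71, and the high range 34 mice from 3.65 to 6.76. Por ran from 183 through 420.1 to 611 CPM in the low range and from 490.4 through 754 to 1369.8 CPM in the high range. Nr1i3 ran from 277 through 469 to 756 CPM in the low range and from 359 through 759 to 1466 CPM in the high range. Within the low and the high range, Nr1i3 and Por had a Pearson r of 0.61 and 0.58, and Por had an r with the score of 0.59 and 0.23. The time of killing is not in the sample labels.

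The ranges were not spread evenly over the groups. Control, imatinib, nilotinib 10 mg/kg, ponatinib 10 mg/kg and L-NAME had 3 mice in the low and 5 in the high range each, whereas nilotinib 30 mg/kg had 6 and 2 and ponatinib 3 mg/kg had 1 and 7. No difference of the clock score from control was called in any group (exact permutation tests, two-sided, adjusted p from 0.31 to 0.74). The largest differences in mean score were 2.16 with ponatinib 3 mg/kg and -1.81 with nilotinib 30 mg/kg. Before adjustment these permutation tests gave p = 0.052 and 0.18, so differences in these groups are not excluded. Between imatinib and control, Nr1i3 differed by 1.02 on the log2 scale within the low range (3 mice against 3) and by 1.21 within the high range (5 against 5). Cyp2b10 differed by 3.22 and 2.93, Cyp3a11 by 0.37 and 0.68 and Cyp2c29 by 0.76 and 0.56. The mean was higher with imatinib than in control in both ranges for these 4 genes, and for Nr1i3 also with L-NAME (0.88 and 0.65). These are differences between means of few mice, in ranges set after the values had been seen, and no test was run within the ranges. The part of the clock in the differences was not tested beyond the fit with the score as a covariate.

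**Figure D4:**
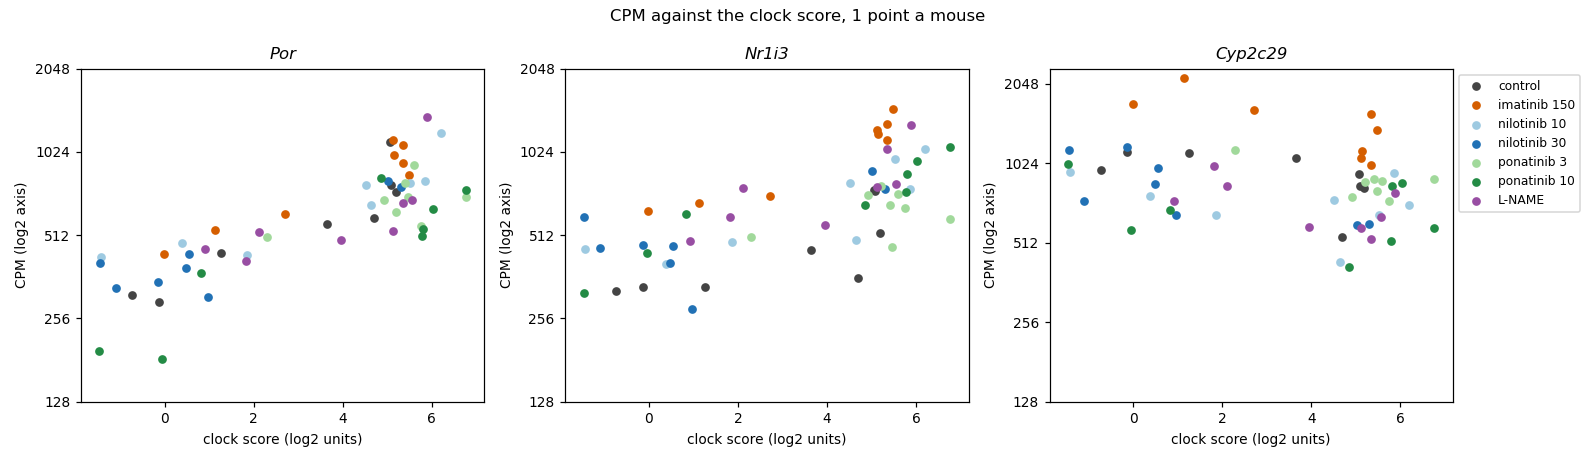
Level in CPM (y axis, log2 axis) of Por, Nr1i3 and Cyp2c29 against the clock score in log2 units (x axis), 1 point a mouse, coloured by group. A cut at a score of 3, set after the values had been seen, divides the mice into 22 with scores up to 2.71 and 34 from 3.65. The mean of imatinib mice lies above that of control mice in both ranges for Nr1i3 (by 1.02 and 1.21 on the log2 scale) and Cyp2c29 (0.76 and 0.56). No test was run within the ranges.

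Ponatinib and nilotinib were given at one dose matched in mg/kg, 10 mg/kg 1 time a day. The match is not one of exposure: at this dose the study calculated a higher plasma exposure for nilotinib than for ponatinib. Nilotinib shares its anilino-pyrimidine core with imatinib, whereas ponatinib carries an alkyne linker between its ring systems. At 10 mg/kg, 2 of the 10 genes differed between the drugs (1.94% of all genes called). Cyp2b9 was higher with ponatinib than with nilotinib by 0.66 ± 0.16 on the log2 scale (1.58-fold, edgeR adjusted p = 0.0216), and 7 of 8 ponatinib mice were above all nilotinib mice. Cyp3a11 was lower with ponatinib by 0.46 ± 0.13 (fold 0.727, adjusted p = 0.038), with 4 of 8 mice below all nilotinib mice. Without mouse 008 the Cyp2b9 difference was 0.77 (adjusted p = 0.0018) and that of Cyp3a11 was -0.38 and no longer called (adjusted p = 0.083). For the other 8 genes no difference was called by edgeR, and the 95% intervals of the log2 difference ran from -0.61 to 2.08 for Cyp2b10, from -0.43 to 0.24 for Cyp2c29, from -0.42 to 0.55 for Nr1i3 and from -0.35 to 0.26 for Nr1i2. Those of the other 4 ran from -2.79 to 0.035 for Cyp2c55, from -1.05 to 0.099 for Por, from -0.83 to 0.13 for Cyp2b13 and from -0.17 to 0.64 for Cyp3a13. Cyp2c55 had an unadjusted p of 0.056 in the edgeR fit.

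The 2 doses of a drug could not be told apart for any of the 10 genes by edgeR. Between nilotinib 30 and 10 mg/kg no gene of all tested was called (0%), with 786 at an unadjusted p below 0.05, 2 by DESeq2 and 0 by limma voom. Cyp3a11 was the 1 member at an unadjusted p below 0.05, with a log2 difference of 0.28 and a 95% interval from 0.02 to 0.53. Between ponatinib 10 and 3 mg/kg 1.38% of all genes were called. Cyp2c29 was the 1 member at an unadjusted p below 0.05, with a log2 difference of -0.35 and an interval from -0.69 to -0.01, and Cyp3a11 differed by -0.03 with an interval from -0.29 to 0.22. DESeq2 and limma voom called 0 members in both dose comparisons.

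The remaining comparisons between drugs set unequal doses side by side, so each compares groups and not equal doses. Imatinib was above nilotinib 30 mg/kg (3.51% of all genes called) in Cyp2b10 by 2.70 ± 0.68, in Nr1i3 by 0.95 ± 0.24 and in Cyp2c29 by 0.79 ± 0.17 on the log2 scale (adjusted p = 0.015, 0.016 and 0.0031). Their Cyp3a11 levels differed by 0.11 with a 95% interval from -0.14 to 0.37, not called. Ponatinib 10 mg/kg was below imatinib (0.957% of all genes called) in Cyp3a11 by a log2 difference of -0.85 ± 0.13 (adjusted p = 1.8e-05) and in Cyp2c29 of -1.09 ± 0.17 (4.7e-05). Cyp3a11 was the 1 member whose groups did not overlap, which held for 0.245% of all genes. Cyp2b10 differed by -2.37 ± 0.67 and was not called by edgeR (adjusted p = 0.076), whereas DESeq2 (-2.36, adjusted p = 0.025), limma voom (-2.82, adjusted p = 0.049) and edgeR with the clock score as a covariate (-2.39, adjusted p = 0.044) called it. Ponatinib 10 mg/kg was also below nilotinib 30 mg/kg (1.65% of all genes called) in Cyp3a11, by a log2 difference of -0.74 ± 0.13 (adjusted p = 0.0012). Without mouse 008 these ponatinib calls remained, at -0.76, -1.01 and -0.65, and Cyp2b9 was then also called against nilotinib 30 mg/kg, at 0.53 (adjusted p = 0.04).

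The counts of each paralog family were also summed. A sum does not recover reads that aligned to more than 1 gene, which were counted on none, and the Cyp2b sum leaves out Gm45225. Over whole libraries, alignments that were not unique ran from 51.9 to 57.5 per 100 gene reads in control mice and from 58.3 to 72.5 with imatinib. The ranges were 58.3 to 65.9 and 62.0 to 84.9 with nilotinib 10 and 30 mg/kg. They were 52.5 to 58.4 and 57.6 to 75.6 with ponatinib 3 and 10 mg/kg, and 55.9 to 75.6 with L-NAME. The part of these alignments in the results was not tested. Summed over 15 Cyp2c genes, the log2 fold change with imatinib was 0.53 (edgeR adjusted p = 0.0041), and over 9 Cyp3a genes it was 0.58 (8.1e-05). The Cyp3a sum also rose with nilotinib 30 mg/kg, by 0.39 (adjusted p = 0.0097). The sum of 5 Cyp2b genes, made up largely of Cyp2b9 and Cyp2b13, differed by 0.36 with imatinib and was not called (adjusted p = 0.15). Of the other Cyp2b, Cyp2c and Cyp3a genes, 16 were tested. With imatinib 6 rose and 1 fell, with ponatinib 10 mg/kg 1 rose, with L-NAME 1 rose and in the other 3 groups none was called. Of all genes tested, 10.2, 12.8 and 11.7% were called with imatinib, ponatinib 10 mg/kg and L-NAME. Without mouse 008 the ponatinib 10 mg/kg count was 2 higher (Cyp2c37 and Cyp2c38) and 2 lower (Cyp2c39 and Cyp2c70). Cyp2c50 rose with imatinib by 0.79 (adjusted p = 1.5e-05) and Cyp2c37 by 1.11 (0.0019), both genes of the Cyp2c cluster. Cyp3a25 rose by 0.62 with imatinib (0.0013) and by 0.51 with L-NAME (0.0063). Cyp3a44, a gene known for female-biased expression, rose by 3.01 with imatinib (0.0104) and by 2.26 with ponatinib 10 mg/kg (0.046; 2.21 and not called without mouse 008, adjusted p = 0.058), and it shares a coding run of 104 bases with Cyp3a11. Cyp2b19 and Cyp2b23 never exceeded 0.227 and 0.142 CPM, and Cyp2c65 and Cyp2c66 had no read.

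P450 genes that answer to other receptors also rose with imatinib. Of 12 tested, 7 rose with imatinib and none fell, beside 10.2% of all genes called and 5.68% called higher in that comparison. Cyp1a2, the classical liver target of the aryl hydrocarbon receptor, ran from 429 through 498 to 694 CPM in control mice and from 2696 through 3386 to 3969 CPM with imatinib, a log2 fold change of 2.68 ± 0.18 (edgeR adjusted p = 8.6e-18). No imatinib mouse overlapped a control mouse. Cyp1a1, of the same receptor, rose by 5.03 (7.1e-06). Cyp4a10 and Cyp4a31, targets of the fatty acid receptor PPAR-alpha, rose by 1.17 (0.00024) and 1.46 (4.4e-05), and Cyp4a31 also rose with nilotinib 30 mg/kg by 0.85 (0.024). In that list ponatinib 10 mg/kg had 1 gene higher (12.8% of all genes called), also without mouse 008, and L-NAME 1 gene lower (11.7%).

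Of known CAR and PXR targets outside these P450 families, those called with imatinib were all higher. Those called with ponatinib 10 mg/kg or L-NAME were all lower. The counts below stand beside 10.2, 12.8 and 11.7% of all genes called in these 3 comparisons. Of all genes, 5.68% were called higher with imatinib, and 5.71 and 6.22% were called lower with ponatinib 10 mg/kg and L-NAME. Nothing particular to the lists is read from the counts or their direction. Of 10 tested genes of oxidation and hydrolysis, 2 rose with imatinib, 3 fell with ponatinib 10 mg/kg and 3 fell with L-NAME. Ephx1, a microsomal epoxide hydrolase, rose by 0.70 with imatinib (adjusted p = 0.0031) and fell by 0.48 with ponatinib 10 mg/kg (0.0401; a difference of -0.44 and not called without mouse 008, adjusted p = 0.076). Ces2a, a carboxylesterase, rose by 0.66 with imatinib (0.03). Fmo5, a flavin monooxygenase, and Aldh1a1, a retinaldehyde dehydrogenase, fell with ponatinib 10 mg/kg by 0.86 (0.00026) and 0.65 (0.0015), and with L-NAME by 0.53 and 0.49. Of 25 genes of conjugation and transport, 3 rose with imatinib. In that list nilotinib 30 mg/kg had 1 higher and 2 lower, ponatinib 10 mg/kg 7 lower and L-NAME 5 lower. Ugt1a9, a glucuronosyltransferase, had a log2 fold change of -2.52 with ponatinib 10 mg/kg and of -2.23 with L-NAME (4.4e-05 and 0.00019). Ugt1a1, which conjugates bilirubin, fell by 0.97, 1.23 and 1.01 with ponatinib 10 mg/kg, L-NAME and nilotinib 30 mg/kg. The export pump gene Abcc3 fell by 0.65 with ponatinib 10 mg/kg and by 0.52 with L-NAME, and the glutathione transferase Gstt1 rose by 0.53 with imatinib. Of 10 further CAR-responsive genes none was called with imatinib by edgeR, and the fatty acid transporter Cd36 fell by 0.60 with ponatinib 10 mg/kg and by 0.56 with L-NAME. Without mouse 008, ponatinib 10 mg/kg had 2 lower of the 10 genes of oxidation and hydrolysis, 1 higher (Gstt1) and 5 lower of the 25 of conjugation and transport and 1 lower of the 10 further genes, and Fmo5 (-1.11), Aldh1a1 (-0.68), Ugt1a9 (-2.35), Ugt1a1 (-0.97), Abcc3 (-0.56) and Cd36 (-0.57) were still called. In none of these lists was a gene called by edgeR with nilotinib 10 mg/kg or ponatinib 3 mg/kg.

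Of all genes tested, 10.2, 5.71, 12.8 and 11.7% were called with imatinib, nilotinib 30 mg/kg, ponatinib 10 mg/kg and L-NAME. The counts below stand beside those shares, and nothing particular to the lists is read from them. Of 12 genes that carry electrons to P450 enzymes or make or break down haem, 4 rose with imatinib and none fell. Cyb5a, the microsomal cytochrome b5, rose by 0.87 ± 0.12 (edgeR adjusted p = 1.2e-06), Blvrb, a biliverdin reductase, by 0.97 (0.00019) and Alad, an enzyme of haem synthesis, by 0.63 (0.00051). Ponatinib 10 mg/kg and L-NAME had 3 higher and 2 lower each, with Alad higher by 0.55 and 0.53 and Cpox, a later enzyme of haem synthesis, lower by a log2 difference of -0.67 and -0.54. Nilotinib 30 mg/kg had 1 higher and 1 lower. Of 25 receptor partners and coregulators, 1 rose with imatinib, whereas nilotinib 30 mg/kg had 1 higher and 2 lower. Rxra, the partner of both receptors, fell by 0.60 (0.0014) and Hnf4a, a nuclear receptor of hepatocyte identity, fell by 0.53 (0.005) with nilotinib 30 mg/kg. In that list ponatinib 10 mg/kg had 2 higher and 1 lower and L-NAME 2 higher and 3 lower, with Hnf4a lower by a log2 difference of -0.47 with L-NAME. Dnajc7, a cochaperone that binds CAR in the cytosol, rose by 0.45 and 0.46 with ponatinib 10 mg/kg and L-NAME. Rack1, a scaffold protein of signalling complexes and the ribosome, rose in 4 groups, by 0.28 to 0.39 on the log2 scale. Without mouse 008 the ponatinib 10 mg/kg counts were 4 higher and 2 lower among the electron and haem genes and 2 higher and 3 lower among the partners, with Alad at 0.57, Cpox at -0.78, Dnajc7 at 0.50 and Rack1 at 0.33, each still called.

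**Figure D5:**
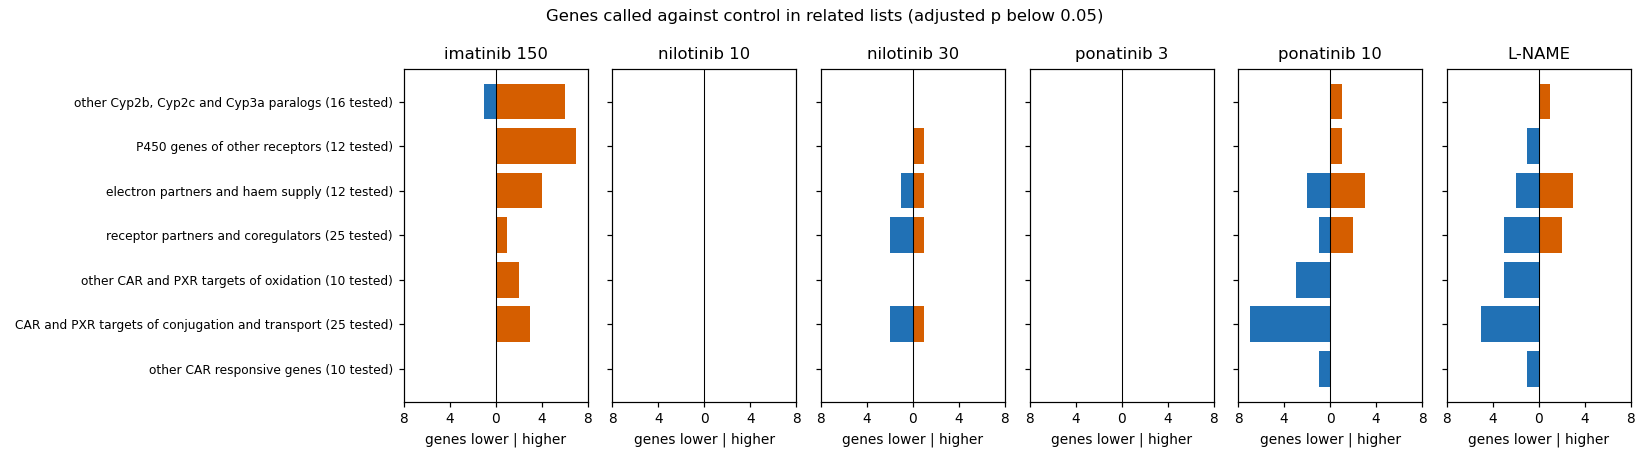
Number of genes called higher (right) and lower (left) against control (x axis) in each related gene list (y axis), 1 panel for each treated group. Imatinib bars lie almost wholly on the right, with 7 P450 genes of other receptors and 6 other paralogs, and ponatinib 10 mg/kg and L-NAME have 7 and 5 genes of conjugation and transport on the left. Of all genes tested, 10.2, 12.8 and 11.7% were called in these 3 groups. With imatinib 5.68% were called higher, and with ponatinib 10 mg/kg and L-NAME 5.71 and 6.22% were called lower.

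The genes most like Cyp2b10 over the 56 mice, by Pearson r of log2 levels, were Cyp2c29 (0.75), Ces2e (0.73), Cyp1a2 (0.69), Cyp2c50 (0.67) and Cyp2c37 (0.65). Those most like Cyp3a11 were Ephx1 (0.75), Ehhadh (0.75), Cyp4a10 (0.71), Aldh1a1 (0.68) and Creg1 (0.68). These values include the differences between groups. With group means subtracted, Cyp2b10 and Cyp2c29 kept an r of 0.67 and Cyp2b9 and Cyp2c29 of 0.70. In the same way Cyp3a13 had an r of 0.77 with the acute-phase gene Lrg1, Cyp3a11 of -0.60 with Lrg1 and Cyp2b9 of -0.70 with the acute-phase gene Hp. Mouse 008, with the highest Lrg1 and Hp of all mice, is one of the points.

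Other cell types and sex-biased genes moved beside these results in the same livers. In bulk liver, fewer cells of a type and less RNA per cell cannot be told apart. Of all genes tested, 10.2, 5.71, 12.8 and 11.7% were called with imatinib, nilotinib 30 mg/kg, ponatinib 10 mg/kg and L-NAME. The counts below stand beside those shares, and nothing particular to the lists is read from them. With imatinib 3 of 9 stellate cell and fibroblast markers fell (Col1a1, Col1a2 and Col3a1), and the summed level of the list ran from 325 to 493 CPM beside 420 to 1212 CPM in control mice. Of 8 Kupffer cell and macrophage markers 2 fell with imatinib (Cd5l and Adgre1), and their sum ran from 421 to 883 CPM beside 749 to 1520 CPM. The summed hepatocyte markers ran from 102417 to 150828 CPM with imatinib and from 84342 to 151064 CPM in control mice, so the 2 ranges overlapped widely. Single markers of that list were called all the same: of 9, imatinib had 2 higher (Apoa1, 0.66, and Ttr, 0.45) and 1 lower (Cps1, -0.92, on the log2 scale). Of 11 pericentral markers 1 rose with imatinib, which was Cyp1a2, and none of 10 periportal markers was called by edgeR. The pericentral sum, which includes Cyp1a2, ran from 15355 to 19149 CPM with imatinib and from 8139 to 17406 CPM in control mice. The periportal sum ran from 3674 to 5841 CPM with imatinib and from 3593 to 6674 CPM in control mice. With imatinib 5 of 15 female-biased genes rose: Cyp4a10, Cyp4a14, Cyp3a44, Cyp3a16 and Sult2a1 (log2 fold change 1.96). Of these, Cyp4a10 and Cyp4a14 were also counted among the P450 genes of other receptors, and Cyp3a44 and Cyp3a16 among the other paralogs. In the male-biased list 1 of 10 genes rose with imatinib (Cyp2d9, 0.97). Of 8 sinusoidal endothelial, 6 cholangiocyte and 8 lymphocyte and neutrophil markers none was called with imatinib, and 1 of 3 intestine and pancreas markers rose (Lgals4). With nilotinib 30 mg/kg 3 hepatocyte markers (Hnf4a, Apob and Cps1), 2 periportal markers and 1 endothelial marker fell and 1 Kupffer cell marker rose, with a summed hepatocyte level from 75334 to 129674 CPM. With ponatinib 10 mg/kg 3 stellate cell and fibroblast markers fell, with a summed level from 171 to 589 CPM. In that group 3 hepatocyte markers were higher and 2 lower, 2 Kupffer cell markers were higher and 1 lower, and 2 periportal markers, 1 pericentral and 1 endothelial marker were lower. Without mouse 008 the stellate, hepatocyte and endothelial counts were as before, the Kupffer cell count was 1 higher and 1 lower, and 1 periportal and 2 pericentral markers were lower. L-NAME had 2 hepatocyte markers higher and 3 lower, 1 Kupffer cell marker higher and 1 stellate cell, 1 periportal, 1 pericentral and 1 endothelial marker lower. The part of these lists in the levels of the 10 genes was not tested.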

How the data were processed

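Liver poly(A) RNA of 56 mice was sequenced. The authors deposited raw counts of reads per Ensembl gene for each mouse, without normalization. The submitters' processing notes name TopHat2 2.0.14, Bowtie2 2.1.0, SAMtools 0.1.18, HTSeq 0.6.1p1 and GRCm38. Read length, strand setting and annotation release are not given in the sources used here. Lines that name no gene were left out of library sizes, which ranged from 5342379 to 97473341 reads.

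Symbols came from GENCODE vM21. Counts were fitted with edgeR 4.0.16 (TMM, filterByExpr by group, robust quasi-likelihood test) in 1 fit of 7 groups of 8 mice, with p values adjusted by Benjamini-Hochberg over 14314 genes and called below 0.05. Errors are SD between mice or SE of the fit, and intervals have 95% coverage. Scores and correlations used log2(CPM + 0.5). Alternatives used DESeq2 1.42.0, limma 3.58.1 (voom), other filters and thresholds, covariates, summed paralogs and the removal of each mouse. The gene list counts without ponatinib mouse 008 were added after the data were seen. The steps were tested on simulated data. The 12 comparisons are the 6 groups against control, the 2 doses of each drug, and the drugs against each other.

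The 10 genes and all gene lists were chosen with earlier results of these data known. Named beside the 10 genes are, by rule, up to 4 genes a list with the lowest adjusted p in any comparison with control, the 5 genes most like Cyp2b10 and Cyp3a11, and marker genes that bear on them. Saa1, Hp, Lrg1, Alb, Tomm40l, Cyp2d9, Cd5l, Adgre1, Lgals4, Cps1, Cyp2c38, Cyp2c39, Cyp2c70, Cyp3a16 and the clock genes were named after their values were seen. No molecular identifiers are named in the sources used here, and the precision given covers the spread between mice and no source of error shared by them.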

Additional observations from a re-analysis of the deposited data

Results flagged for a closer look

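Of 70 groups of 8 mice examined for the 10 genes, 8 held a mouse far from the other 7, by a criterion that chance meets in about 1 of 20 groups. Por in L-NAME mouse 005 was 1369.8 CPM, the highest of that group, and Cyp2b10 in L-NAME mouse 050 was 12.2 CPM, also the highest. Ponatinib 10 mg/kg mouse 008 held the lowest Cyp2b9 of its group (201 CPM) and the highest Cyp3a13 (482 CPM), beside the acute-phase levels described for this mouse. In the nilotinib 10 mg/kg group Cyp2b13 was highest in mouse 053 (459 CPM) and Cyp3a13 in mouse 019 (334 CPM). Cyp2c29 was lowest in control mouse 040 (539.9 CPM) and, with ponatinib 3 mg/kg, highest in mouse 007 (1144 CPM). The origin of these single values was not tested.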

How the results depend on the processing

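All 12 counts of called members kept within 1.5 times under RLE size factors, DESeq2 and the fit of 48 mice without L-NAME, where each applied. Under limma voom with sample weights the counts were 1 for nilotinib 10 mg/kg, 4 for ponatinib 10 mg/kg and 2 for L-NAME against control, 1 for ponatinib 10 against nilotinib 10 mg/kg and 2 for ponatinib 10 against nilotinib 30 mg/kg. With the outside-gene share as a covariate they were 0 for nilotinib 30 mg/kg, 0 for L-NAME and 1 for ponatinib 10 against nilotinib 10 mg/kg. With the clock score as a covariate, added after the data were seen, they were 2 for nilotinib 30 mg/kg, 2 for ponatinib 10 mg/kg and 5 for ponatinib 10 mg/kg against imatinib. Without the low count filter L-NAME had 0. At adjusted p below 0.01 nilotinib 30 mg/kg, L-NAME and ponatinib 10 against nilotinib 10 mg/kg had 0 and imatinib against nilotinib 30 mg/kg had 1, and at unadjusted p below 0.01 the last had 5. With 1 mouse left out the counts ran from 4 to 5 for imatinib, 0 to 0 for nilotinib 10 mg/kg, 0 to 1 for nilotinib 30 mg/kg, 0 to 0 for ponatinib 3 mg/kg, 0 to 2 for ponatinib 10 mg/kg (1 without control mouse 040 or ponatinib mouse 008 or 014, 2 without mouse 018) and 0 to 1 for L-NAME. They ran from 0 to 0 for both dose comparisons, 0 to 2 for ponatinib 10 against nilotinib 10 mg/kg (0 without nilotinib mouse 036), 2 to 2 for ponatinib 10 mg/kg against imatinib, 1 to 2 for ponatinib 10 against nilotinib 30 mg/kg and 2 to 4 for imatinib against nilotinib 30 mg/kg. The cause was not tested.

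Log2 fold changes against control that turned direction were all uncalled in the fit as reported. With the outside-gene share they were, for Nr1i2, -0.072 (nilotinib 30 mg/kg), -0.039 (ponatinib 10 mg/kg) and -0.12 (L-NAME), and with nilotinib 30 mg/kg -0.040 for Nr1i3, -0.068 for Cyp2b13 and -0.45 for Cyp2c55. With the clock score Por was 0.056 (nilotinib 30 mg/kg), -0.16 (ponatinib 3 mg/kg) and -0.029 (L-NAME), Cyp2b10 was -0.22, 0.36 and 0.012 in the same groups, Cyp2c29 was 0.077 with ponatinib 3 mg/kg, and Cyp2c55 was 0.0055 with imatinib and -0.30 with nilotinib 30 mg/kg. With voom Cyp2b13 was 0.11 with ponatinib 3 mg/kg, Cyp3a13 -0.0086 with ponatinib 10 mg/kg and Cyp2c29 0.018 with nilotinib 30 mg/kg. Family sums stood against single members at -0.10, -0.030, 0.13, 0.17 and 0.024 for Cyp2b (nilotinib 10 and 30, ponatinib 3 and 10 mg/kg, L-NAME), at 0.17, 0.39, -0.11 and -0.10 for Cyp3a (the same groups without L-NAME) and at 0.53, 0.0070, 0.036 and 0.055 for Cyp2c (imatinib, nilotinib 10 and 30, ponatinib 3 mg/kg). With 1 mouse left out they ran from -0.16 to 0.28 for Por with L-NAME, for Cyp2b10 from -0.38 to 0.11 (nilotinib 10 mg/kg), -0.059 to 0.52 (nilotinib 30 mg/kg), -0.32 to 0.22 (ponatinib 3 mg/kg) and -0.65 to 0.18 (L-NAME), from -0.20 to 0.0036 for Cyp2b9 and -0.049 to 0.12 for Cyp2b13 with nilotinib 30 mg/kg, from -0.14 to 0.092 for Cyp2b13 with ponatinib 3 mg/kg, from -0.18 to 0.23 for Cyp3a13 with ponatinib 10 mg/kg, and for Cyp2c55 from -0.40 to 0.070 with imatinib and -0.31 to 0.21 with nilotinib 30 mg/kg. No paired analysis was possible because each mouse number is unique and no group shares a number with another.

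Counts over all genes also moved between tests: edgeR called 210 and 1 genes for nilotinib 10 and ponatinib 3 mg/kg, DESeq2 521 and 47, and voom 1240 and 571. Low counts limit Cyp2b10 and Cyp2c55, whose lowest levels were 0, and the sharing of reads between copies limits Cyp2b13 and Cyp2b9. The overlap with Tomm40l limits the level of Nr1i3.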
